A study of Macaca fascicularis with 16 samples.

Results

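The genes of the proteasome, the protease that degrades ubiquitin-tagged proteins in the cell, were followed in blood mononuclear cells after the antibody NKTT320. Members were all gene symbols that begin with PSMA, PSMB, PSMC, PSMD, PSME, PSMF or PSMG and a digit, which gave 49 of the 23602 symbols in the count tables. Of these 49 members, 45 had enough counts to be tested and 4 (PSMA8, PSMB8, PSMB9 and PSMB11) did not. The rule also takes in PSMC3IP, which encodes a recombination factor of meiosis and no proteasome subunit, so 44 of the 45 tested members are proteasome genes.

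NKTT320 is an antibody against the fixed receptor chain shared by invariant natural killer T (iNKT) cells, a small T-cell population that sees lipids on CD1d and releases cytokines soon after activation. The study asked what the antibody does in living animals, and its libraries came from LG04, LG11, LG12 and LG15, 4 cynomolgus macaques (Macaca fascicularis) of Mauritian origin. Each animal gave 4 libraries of unfractionated blood mononuclear cells: before treatment, and 30 minutes, 2 hours and 1 day after it. All 4 animals received NKTT320, no untreated animals are among the libraries analysed here, and dose and age are not given in the labels, so each later time is set against the same animal before treatment and time since the drug cannot be told apart from repeated bleeding.

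The proteasome has a barrel, the 20S core, of stacked alpha and beta rings, and 3 of the beta subunits cut peptide bonds. The 19S cap recognises ubiquitin chains and unfolds the substrate with a ring of ATPases, and other activators, among them PA28, can bind the barrel instead. In immune cells interferon is known to induce the alternative catalytic subunits PSMB8, PSMB9 and PSMB10, which replace PSMB5, PSMB6 and PSMB7 to form the immunoproteasome, together with the PA28 subunits PSME1 and PSME2, and the resulting peptides supply MHC class I molecules.

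Libraries held 1417467 to 8582852 counts, of which the 49 members took 3090 to 22991, or 0.157% to 0.309%. Reads were counted on human gene models, so levels can be low where macaque and human sequences differ. Globin genes, which mark red cells, took 0.025% to 48.7% of the counts and exceeded 12% in 5 libraries, all 4 of LG04 and the 1 day library of LG15. Pairs of libraries were compared over all genes by chi-square per gene. Within LG04, pairs with the 1 day library had 67.2 or more. The pair of 1 day libraries from LG04 and LG15 had 8.36. It was the closest of all pairs from different animals, and the next had 20.8. The lowest pair within LG04 had 25.9 and the lowest within LG15 had 23.2. Before treatment LG04 also matched another animal more closely than its own 30 minute library, with 26.0 for LG15 at 2 hours against 64.4. Depth also differed, with 1846011 counts in LG04 and 3156626 in LG15 at 1 day, against 6362826 in LG04 before treatment. LG04 at 1 day had 24.4 with LG15 at 2 hours (1890190 counts) and 35.4 with LG12 at 1 day (1417467 counts). The part of depth in these values was not tested. Whether the label of the 1 day library of LG04 is right was not tested either, and the libraries were used as labelled. The median and the leading genes at 1 day are also given without the 1 day library of LG04. All genes of the marker lists for T cells, B cells, NK cells, monocytes, platelets, neutrophils and red cells had counts. CPM are counts scaled to a common library size with the TMM factors of edgeR. Summed over 7 platelet markers, levels at 1 day ranged over 698 to 30444 CPM, against 118 to 9152 CPM before treatment. Within animals the platelet sum was higher at 1 day in LG04 (30444 against 365 CPM) and LG11 (698 against 118 CPM). It was also higher in LG12 (951 against 118 CPM) and LG15 (24977 against 9152 CPM). At 1 day 7 of the 7 platelet markers had a log2 fold change above 0 (median 2.92). Summed over 9 monocyte markers, levels ranged over 415 to 3508 CPM before treatment. They ranged over 1066 to 7188 CPM at 2 hours and 1121 to 7718 CPM at 1 day. Within animals the monocyte sum at 1 day was lower than before treatment in LG04 (1121 against 3508 CPM) and LG15 (1204 against 1679 CPM). It was higher in LG11 and LG12. Summed over 6 red-cell markers, levels ranged over 171 to 934221 CPM at 2 hours and 1228 to 226121 CPM at 1 day, against 223 to 189034 CPM before treatment. Within animals the red-cell sum at 1 day was lower than before treatment in LG04 and LG11 and higher in LG12 and LG15. Summed over 8 T-cell markers, levels at 2 hours ranged over 621 to 787 CPM, against 913 to 1033 CPM before treatment, with no overlap, and 0 of the 8 had a log2 fold change above 0 (median -0.44). Summed over 6 NK-cell markers, levels at 30 minutes ranged over 144 to 275 CPM, against 261 to 464 CPM before treatment, and 0 of the 6 lay above 0 (median -0.86). The part of these cell types in the proteasome values was not tested, and in bulk samples fewer cells of a type and less RNA per cell cannot be told apart.

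Levels of different genes were compared in the authors' FPKM, which divide by gene length, as the mean over all 16 libraries with its SD. Nearly every subunit was readily detected: 41 of 49 members averaged above 10 FPKM. The highest was PSME1, the alpha subunit of PA28, at 280.4 ± 78.9 FPKM, which was 3.13 times the level of the next member, PSMB4. PSMB4, a structural beta subunit that also aids barrel assembly, stood at 89.6 ± 28.1 FPKM. In the alpha ring, which gates the entry to the barrel, PSMA7 was highest at 81.2 ± 20.8 FPKM and PSMA5 lowest of the 7 tested at 11.1 ± 3.91 FPKM. These 7 proteins are present in equal number in each ring, whereas their FPKM spanned 7.33-fold on the human gene models.

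**Figure D1:**
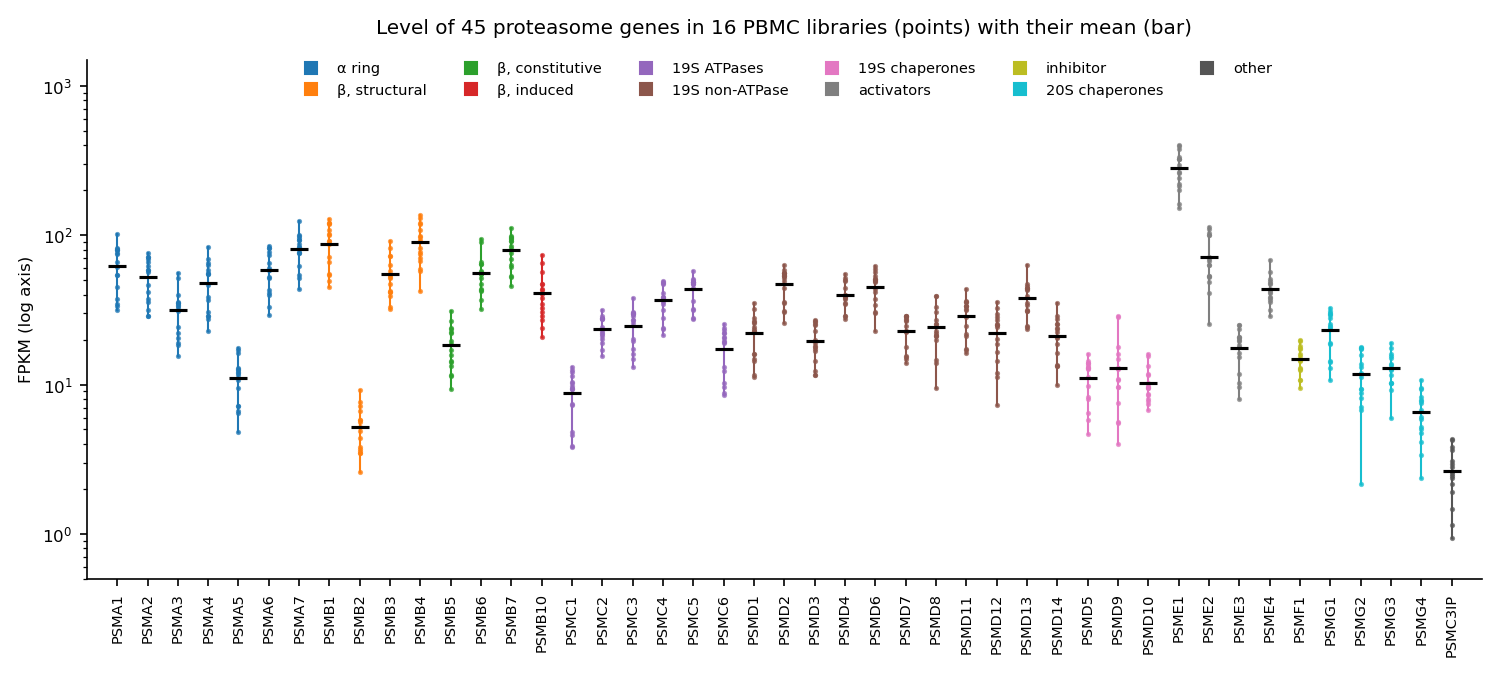
FPKM on a log axis of the 45 tested members, ordered and coloured by role, with a point for each of 16 libraries, a line for their range and a black bar for the mean. PSME1 lies above all other members at a mean of 280.4 FPKM, and PSMC3IP is lowest at 2.65 FPKM.

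Among the 3 constitutive catalytic subunits, PSMB7 (trypsin-like activity) stood at 79.3 ± 19.8 FPKM, PSMB6 (caspase-like activity) at 56.2 ± 17.1 FPKM and PSMB5 (chymotrypsin-like activity) at 18.4 ± 6.11 FPKM. Of the induced catalytic subunits, PSMB10, which replaces PSMB7, stood at 40.8 ± 14.7 FPKM. The cap ATPase PSMC5 averaged 43.5 ± 9.28 FPKM and the cap scaffold PSMD2 47.1 ± 11.6 FPKM, the highest of their groups. The assembly factors and the inhibitor were lower. PSMD9, a chaperone of cap assembly, averaged 13.0 ± 7.17 FPKM, PSMF1, the inhibitor PI31, averaged 14.8 ± 3.16 FPKM, and PSMG1, a chaperone of alpha ring assembly, averaged 23.1 ± 7.13 FPKM.

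The other induced subunits gave no usable values. PSMB9 had no count in any of the 16 libraries, which allows at most 0.35 to 2.12 CPM per library by a floor of 3 counts. PSMB8 had 0 to 6 counts per library, 22 in all, of which 11 libraries held at least 1. Both genes lie in the MHC region, where TAP1 and TAPBP were also at 0 in all 16 libraries, so these zeros are read as a limit of counting on human gene models and say nothing about the immunoproteasome in these cells. The thymus-specific PSMB11 had 1 count in all, and PSMA8, the alpha subunit of the testis, had 2.

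Time after NKTT320 moved no proteasome gene past the threshold. With edgeR's quasi-likelihood test and Benjamini-Hochberg adjustment over 11545 genes, 0 of 45 members passed an adjusted p of 0.05 at 30 minutes, 2 hours or 1 day against pre-treatment. Over all genes tested the share called was 0% at 30 minutes, 0% at 2 hours and 0.225% (26 genes) at 1 day, so calls were rare everywhere. DESeq2 also called 0 members at each time, against 0.0478%, 0.593% and 3.07% of all genes. At an unadjusted p under 0.05, edgeR gave 0 members at 30 minutes, 2 at 2 hours (PSMC3 and PSMD13, both higher) and 1 at 1 day (PSME1, lower), against 2.53%, 7.43% and 13.6% of all genes. The share of members was therefore below that of all genes at 30 minutes, 2 hours and 1 day. Between the later times the members called were also 0, against 0% of all genes for 2 hours against 30 minutes, 0.104% for 1 day against 2 hours and 0.0433% for 1 day against 30 minutes. The unadjusted counts were 0, 3 and 4 members for those 3 comparisons, against 4.62%, 12.6% and 13.1% of all genes. In the test of any difference between the 4 times 0 members passed, against 0.104% of all genes, and 1 (PSME1) had an unadjusted p under 0.05, against 12.2%.

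Most changes were also bounded. The 95% interval of the fold change stayed within 2-fold in either direction for 44 of 45 members at 30 minutes, 43 at 2 hours and 43 at 1 day. Over all genes tested that share was 74.6%, 69.9% and 66.2%. These shares were not matched for count. A mean of at least 100 counts was reached by 38 of the 45 members and by 6169 of the 11545 genes. The part of count in the difference was not tested. The exceptions were PSMD9 at all 3 times, PSMB6 at 2 hours and PSMG4 at 1 day. The median log2 fold change of the members was 0.03 at 30 minutes, 0.04 at 2 hours and -0.12 at 1 day, beside 0.02, 0.02 and -0.00 for all genes. At 1 day 30 of 45 members lay below 0 and 15 above.

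**Figure D2:**
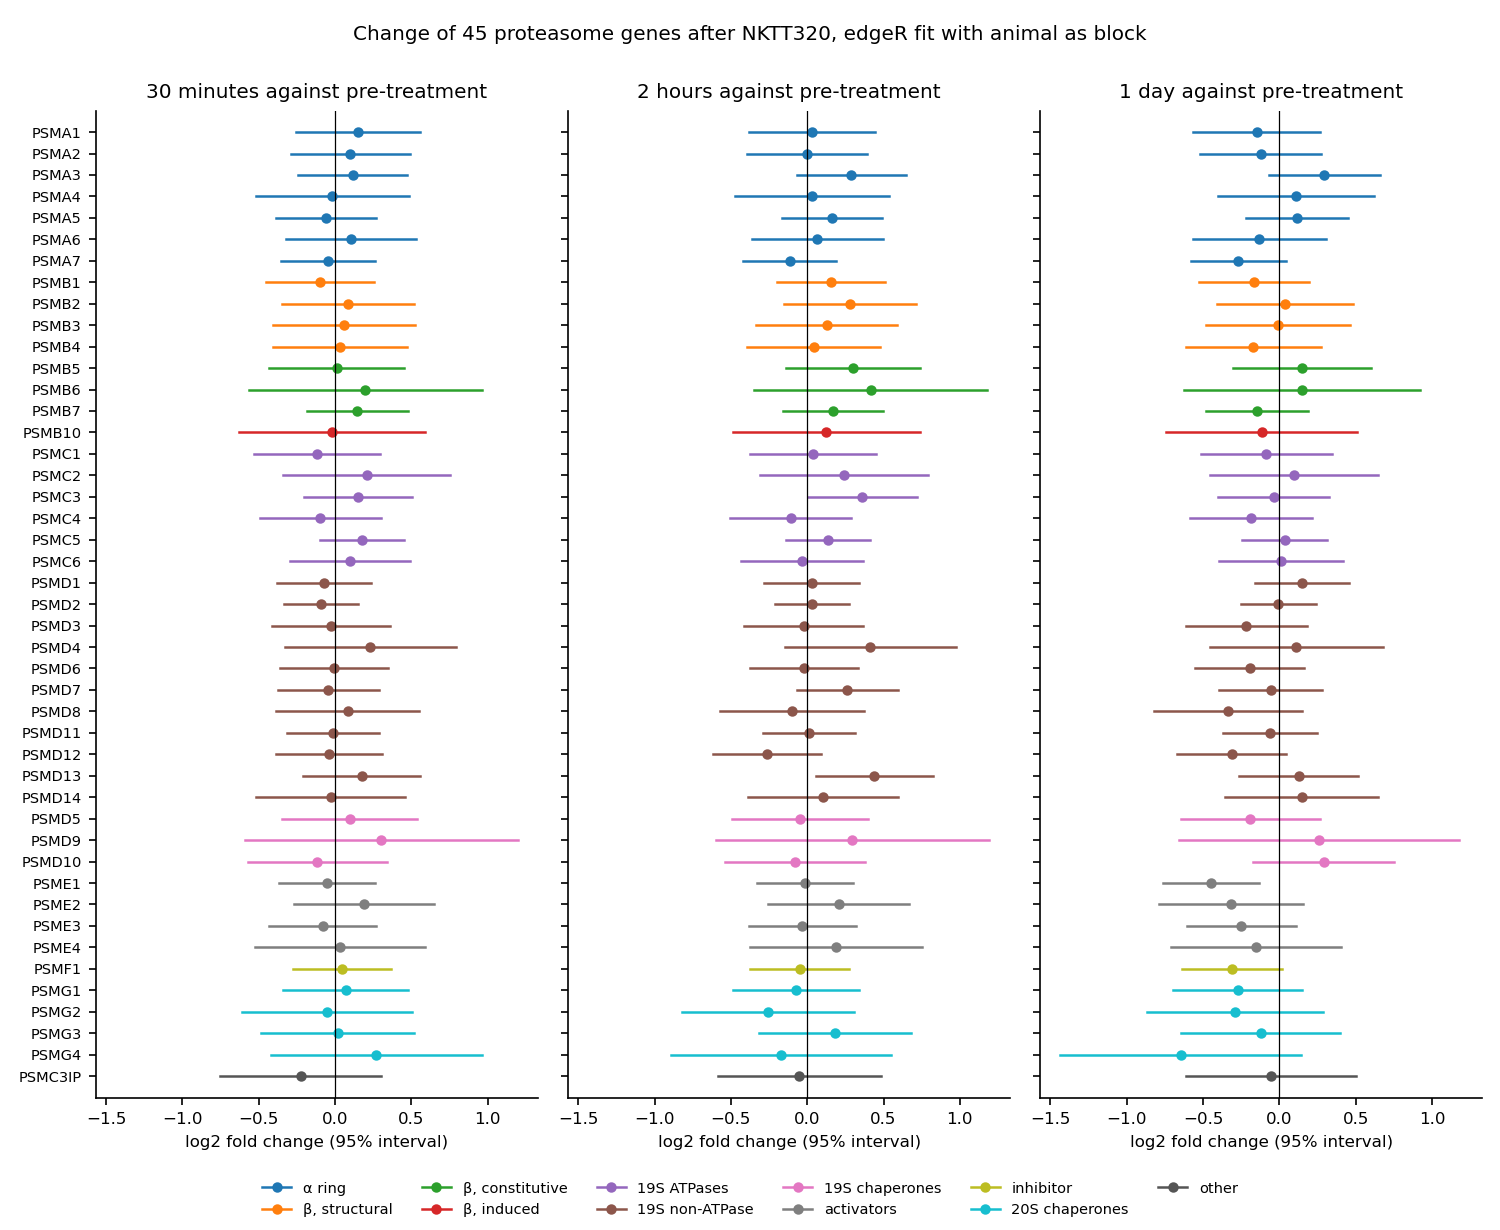
Log2 fold change (point) with its 95% interval (line) of the 45 tested members at 30 minutes, 2 hours and 1 day against pre-treatment, 4 animals each, coloured by role. Most intervals cross 0; those of PSMC3 and PSMD13 at 2 hours and of PSME1 at 1 day do not, and none of the 3 passed the adjusted threshold.

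The animals did not move together. The median change of the 45 members at 2 hours was 0.39 in LG04, -0.00 in LG11, -0.06 in LG12 and -0.09 in LG15. The rise in LG04 depends on the TMM scaling, since the members' share of its raw counts was 0.218% before treatment and 0.169% at 2 hours. At 1 day the median change was -0.18 in LG04, 0.12 in LG11, -0.07 in LG12 and -0.24 in LG15. The downward median at 1 day thus rested on 3 of 4 animals, and it was -0.01 without the 1 day library of LG04 and -0.01 without LG15. Without LG04 the median was -0.05 at 30 minutes and -0.11 at 2 hours, so the signs above 0 at those times rested on that animal. Animal took a median of 44.1% of a member's variance and time 13.4%, beside 46.4% and 12.1% for all genes, so the split of the members was near that of all genes. Animal took the larger share in 37 of 45 members.

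PSME1 of the PA28 activator had the lowest p-value of any member against pre-treatment. PSME1, in the order pre-treatment, 30 minutes, 2 hours and 1 day, stood at 238, 257, 306 and 168 CPM in LG04, and 282, 244, 263 and 235 CPM in LG11. In LG12 it stood at 208, 164, 188 and 142 CPM, and in LG15 at 235, 269, 205 and 166 CPM. The 1 day library was the lowest of the 4 in LG04, LG11, LG12 and LG15 alike, while the values at 1 day overlapped those before treatment between animals. The log2 fold change at 1 day was -0.45 ± 0.15 (SE; 95% interval -0.76 to -0.13), lower in 4 of 4 animals, with an unadjusted p of 0.0089 and an adjusted p of 0.17 in edgeR, which missed the threshold. Without the 1 day library of LG04 it was -0.38. At 30 minutes and 2 hours the log2 fold changes were -0.05 ± 0.14 and -0.01 ± 0.14. Against 2 hours the 1 day value was -0.44 ± 0.15, again lower in 4 of 4 animals, with an adjusted p of 0.28 in edgeR.

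PSME2, the beta subunit that pairs with PSME1, stood in the same order of times at 43.0, 57.2, 73.0 and 34.7 CPM in LG04, and 70.5, 69.3, 72.4 and 69.1 CPM in LG11. The values were 39.2, 34.3, 40.8 and 35.3 CPM in LG12 and 46.5, 63.7, 43.9 and 24.1 CPM in LG15. It was nearly level in LG11, lowest at 30 minutes in LG12 and clearly lowest at 1 day in LG04 and LG15, and the groups overlapped. The log2 fold change at 1 day was -0.32 ± 0.22, lower in 4 of 4 animals but by 0.03 in LG11, with an adjusted p of 0.62 in edgeR. It was -0.24 without the 1 day library of LG04 and -0.13 without LG15. The ratio of PSME1 to PSME2 in FPKM ran from 3.14 to 5.90, with a median of 4.07.

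The other activators did not share the pattern in all animals. PSME3, the nuclear PA28 gamma, had a log2 fold change of -0.25 ± 0.16 at 1 day and was lower in 2 of 4 animals (adjusted p = 0.60). PSME4 (PA200), a nuclear activator known from spermatogenesis, had -0.15 ± 0.26 and was lower in 3 of 4 (adjusted p = 0.90). PSMF1, the inhibitor, stood at 59.9, 71.2, 73.6 and 43.9 CPM in LG04, and 56.9, 51.5, 50.9 and 46.9 CPM in LG11. LG12 had 58.6, 52.6, 51.4 and 38.2 CPM and LG15 51.9, 61.2, 45.9 and 52.8 CPM. Its 1 day value was the lowest in LG04, LG11 and LG12 and not in LG15, with a log2 fold change of -0.31 ± 0.15 and an adjusted p of 0.40.

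A regulator and related genes outside the rule were read beside the members. IRF1, a transcription factor that drives immunoproteasome genes, had a log2 fold change of -0.58 ± 0.11 at 1 day, lower in 4 of 4 animals with an adjusted p of 0.063 in edgeR. It missed the threshold. Of 16 genes of antigen processing, a list that holds IRF1, 13 were tested, 0 were called, 11 lay below 0 and 2 above at 1 day, with a median of -0.26 beside -0.00 for all genes.

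PSMB10 was the sole induced catalytic subunit with usable counts, and it showed no common direction over time. It stood at 47.6, 46.2, 48.1 and 25.6 CPM in LG04, and 56.9, 38.5, 33.8 and 33.4 CPM in LG11. Libraries of LG12 gave 20.7, 20.4, 27.0 and 35.9 CPM, and those of LG15 26.0, 43.6, 55.3 and 37.5 CPM. LG11 was highest before treatment and LG15 at 2 hours, so the animals moved in opposite directions. At 2 hours the change was 0.01 in LG04, -0.74 in LG11, 0.37 in LG12 and 1.08 in LG15. The fitted log2 fold change was 0.13 ± 0.28 at 2 hours and -0.12 ± 0.29 at 1 day, both far inside the spread between animals (adjusted p = 0.95 and 0.94 in edgeR).

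PSMB7 was steadier, at 59.7, 82.8, 85.3 and 59.0 CPM in LG04, and 72.9, 64.8, 74.7 and 77.5 CPM in LG11. For LG12 the counts came to 60.5, 61.5, 70.0 and 49.2 CPM, and for LG15 to 72.2, 84.6, 67.8 and 54.0 CPM. Its log2 fold change was 0.17 ± 0.15 at 2 hours and -0.15 ± 0.15 at 1 day, with the groups overlapping. The ratio of PSMB10 to PSMB7 in FPKM ran from 0.28 to 0.86 over the 16 libraries. Its median was 0.548 before treatment, 0.512 at 30 minutes, 0.486 at 2 hours and 0.543 at 1 day. The animals went different ways. The ratio was 0.77, 0.55, 0.52 and 0.39 in LG04 and 0.76, 0.52, 0.45 and 0.41 in LG11, lower at each later time. It was 0.32, 0.28, 0.40 and 0.68 in LG12 and 0.33, 0.50, 0.86 and 0.72 in LG15, higher at 2 hours and 1 day than before treatment.

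PSMB5 stood at 16.1, 16.6, 23.4 and 19.01 CPM in LG04, and 17.1, 18.7, 20.2 and 24.5 CPM in LG11. In LG12 it stood at 13.4, 8.06, 15.6 and 12.7 CPM, and in LG15 at 13.8, 17.6, 15.5 and 11.8 CPM. It was higher at 2 hours than before treatment in 4 of 4 animals, with a log2 fold change of 0.30 ± 0.20 that missed the threshold (adjusted p = 0.79 in edgeR). At 2 hours 3 of 45 members (PSMA3, PSMB5 and PSMD13) were higher in 4 of 4 animals, beside 8.06% of all genes, so the count was near the background. At 1 day 7 of 45 members (15.6%) were lower in 4 of 4 (PSMA7, PSMD3, PSMD8, PSMD12, PSME1, PSME2 and PSMG2), beside 9.09% of all genes, and none was higher in 4 of 4, beside 9.83%.

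**Figure D3:**
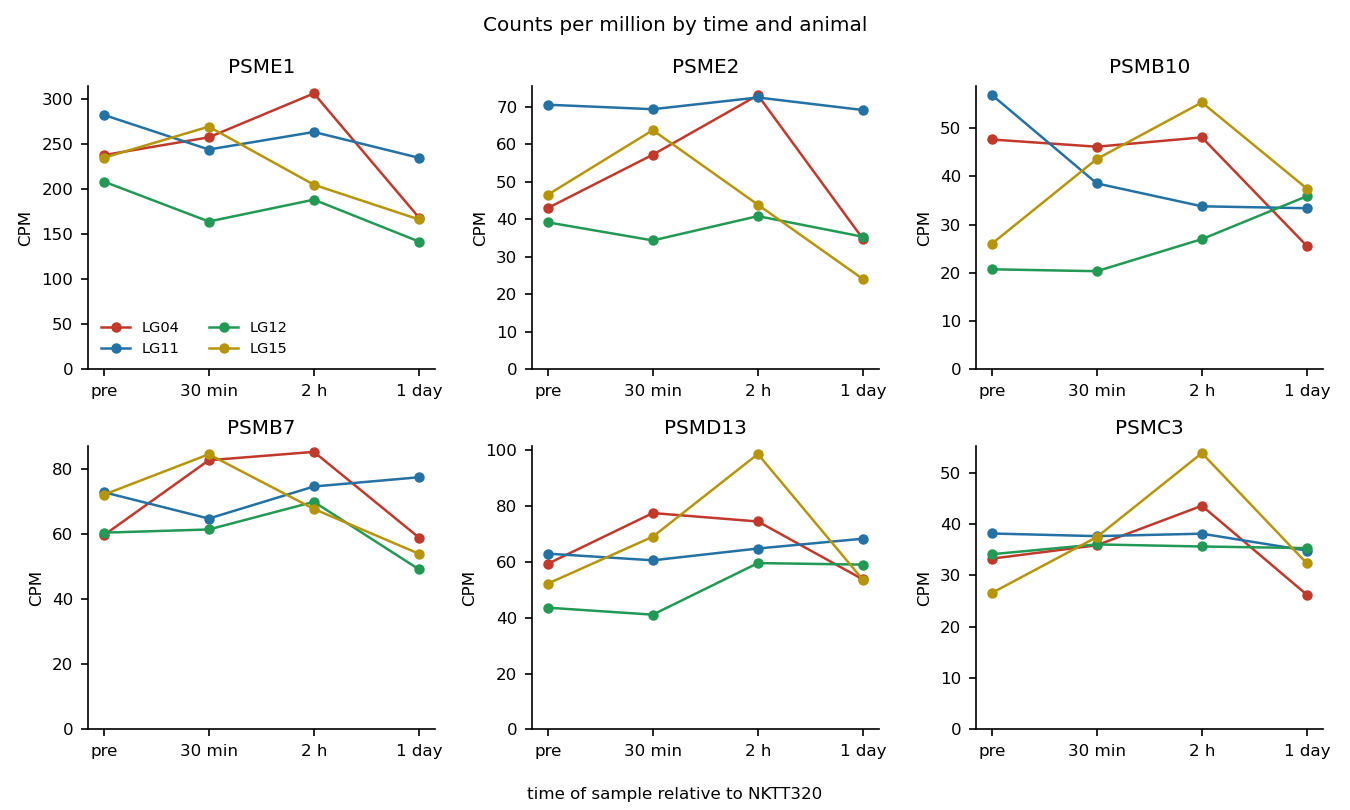
CPM of PSME1, PSME2, PSMB10, PSMB7, PSMD13 and PSMC3 at the 4 times, with a line for each animal. PSME1 is lowest at 1 day in every animal (141.9 to 234.8 CPM), whereas PSMB10 is higher at 2 hours in LG15 and lower in LG11 than before treatment.

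In the alpha ring, changes were small and mixed in sign. PSMA7 stood at 78.1, 80.7, 70.9 and 57.0 CPM in LG04, and 74.9, 62.4, 67.7 and 73.0 CPM in LG11. The values were 69.6, 55.6, 55.7 and 53.3 CPM in LG12 and 74.0, 92.4, 82.8 and 62.7 CPM in LG15. It was lower at 1 day in 4 of 4 animals, by 0.04 in LG11 on the log2 scale, and its log2 fold change was -0.27 ± 0.14 (adjusted p = 0.46). PSMA3 went the other way, with 0.29 ± 0.16 at 2 hours and 0.29 ± 0.17 at 1 day (adjusted p = 0.73 and 0.51). Over the 7 tested alpha genes, 3 lay above 0 and 4 below at 1 day, with a median of -0.12.

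Measured against the ring itself, which removes the scaling of the library, PSMA3 was the sole member whose 1 day libraries did not overlap the pre-treatment libraries. The log2 of its count over the summed counts of the 7 alpha genes was -3.70 ± 0.08 at 1 day and -4.08 ± 0.07 before treatment (SD, n = 4 each). That is 1 of 45 members higher without overlap, beside 1.23% of all genes, a count near the background. At 2 hours PSMB2, a structural beta subunit, was the sole such member, at -3.71 ± 0.06 against -3.96 ± 0.15 before treatment, beside 0.719% of all genes. No member was higher without overlap at 30 minutes, beside 0.113% of all genes. None was lower without overlap at 30 minutes, 2 hours or 1 day, beside 0.598%, 0.606% and 0.771%.

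The structural beta subunit PSMB4 stood at 60.4, 78.3, 87.5 and 59.7 CPM in LG04, and 82.4, 69.1, 83.6 and 96.4 CPM in LG11. LG12 had 64.2, 49.2, 60.3 and 51.5 CPM and LG15 72.0, 88.0, 57.8 and 44.9 CPM. LG11 was highest and LG15 lowest at 1 day, and the log2 fold change there was -0.17 ± 0.21 (adjusted p = 0.84). All 4 structural beta genes had a log2 fold change above 0 at 2 hours, with a median of 0.14, as did 6085 of all 11545 genes. Without LG04 the count was 2 of 4 and the median 0.02. At 1 day 1 of 4 lay above 0, with a median of -0.09.

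In the 19S cap, PSMC3 and PSMD13 had the lowest p-values at 2 hours. PSMC3, an ATPase, stood at 33.3, 35.9, 43.6 and 26.2 CPM in LG04, and 38.2, 37.7, 38.1 and 34.8 CPM in LG11. Libraries of LG12 gave 34.1, 36.0, 35.6 and 35.3 CPM, and those of LG15 26.6, 37.5, 53.8 and 32.3 CPM. LG15 at 2 hours was the highest of all 16 libraries, while LG11 and LG12 hardly moved. The log2 fold change at 2 hours was 0.36 ± 0.16, higher in 3 of 4 animals (unadjusted p = 0.046, adjusted p = 0.67 in edgeR), and it was 0.15 without LG15.

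PSMD13, a non-ATPase subunit of the lid, stood at 59.4, 77.5, 74.5 and 53.8 CPM in LG04, and 63.0, 60.6, 64.8 and 68.4 CPM in LG11. For LG12 the counts came to 43.6, 41.1, 59.6 and 59.1 CPM, and for LG15 to 52.2, 69.1, 98.7 and 53.6 CPM. The 2 hour library of LG15 was again the highest of the 16. The log2 fold change at 2 hours was 0.44 ± 0.18, higher in 4 of 4 animals but by 0.04 in LG11 (unadjusted p = 0.028, adjusted p = 0.61 in edgeR), and it was 0.27 without LG15. At 1 day it was 0.13 ± 0.18.

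The cap also held steady members. PSMD2, a scaffold of the base of the cap, stood at 109.7, 125, 135 and 121 CPM in LG04, and 134, 115, 136 and 143 CPM in LG11. In LG12 it stood at 131, 111, 116 and 125 CPM, and in LG15 at 132, 124, 131 and 116 CPM. No library departed from another by more than 1.31-fold, and the log2 fold changes were -0.09 ± 0.11, 0.03 ± 0.11 and -0.01 ± 0.11 at 30 minutes, 2 hours and 1 day.

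PSMC5, an ATPase, stood at 45.3, 60.0, 62.5 and 50.5 CPM in LG04, and 50.9, 50.4, 49.8 and 53.6 CPM in LG11. The values were 47.1, 51.3, 44.7 and 49.2 CPM in LG12 and 51.5, 59.1, 58.8 and 46.1 CPM in LG15. Its groups overlapped, with log2 fold changes of 0.18 ± 0.13, 0.14 ± 0.13 and 0.04 ± 0.13. PSMD7, a lid scaffold, stood at 28.9, 30.5, 44.8 and 28.2 CPM in LG04, and 36.6, 30.7, 34.6 and 39.0 CPM in LG11. LG12 had 33.4, 30.5, 33.7 and 26.1 CPM and LG15 30.3, 33.4, 42.4 and 30.4 CPM. It was highest at 2 hours in LG04, LG12 and LG15 but not in LG11, and its log2 fold change there was 0.26 ± 0.15 (adjusted p = 0.75).

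PSMD12, another lid subunit, stood at 36.3, 30.1, 22.5 and 29.5 CPM in LG04, and 40.6, 46.1, 37.4 and 36.1 CPM in LG11. Libraries of LG12 gave 35.3, 47.1, 40.6 and 31.3 CPM, and those of LG15 35.6, 25.9, 25.9 and 24.1 CPM. It was lower at 1 day in 4 of 4 animals, with a log2 fold change of -0.31 ± 0.17 (adjusted p = 0.46). PSMD8, also of the lid, had -0.34 ± 0.22, lower in 4 of 4 (adjusted p = 0.60). Over the 11 non-ATPase cap genes 4 lay above 0 and 7 below at 1 day, and over the 6 ATPase genes 3 lay above and 3 below.

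The chaperones of barrel assembly had low levels. PSMG1 stood at 18.6, 22.6, 22.2 and 15.7 CPM in LG04, and 23.0, 18.5, 23.8 and 25.2 CPM in LG11. For LG12 the counts came to 23.9, 24.6, 17.9 and 15.1 CPM, and for LG15 to 21.4, 24.7, 18.4 and 15.0 CPM. It was highest at 1 day in LG11 and lowest there in the other 3 animals, with a log2 fold change of -0.27 ± 0.20 (adjusted p = 0.65). PSMG4 stood at 5.52, 5.42, 4.51 and 1.97 CPM in LG04, and 4.68, 5.79, 2.77 and 2.86 CPM in LG11. In LG12 it stood at 3.49, 2.54, 3.46 and 4.05 CPM, and in LG15 at 2.95, 5.75, 4.49 and 1.58 CPM. The 1 day libraries of LG04, LG11, LG12 and LG15 held 3, 24, 7 and 4 counts of PSMG4, near the floor of 3 counts in LG04 and LG15. Its log2 fold change of -0.65 ± 0.36 at 1 day was the largest of any member at that time, lower in 3 of 4 animals and higher in LG12 (adjusted p = 0.50), and it was -0.50 without the 1 day library of LG04. At 30 minutes it was 0.27 ± 0.32 (adjusted p = 1.0). All 4 chaperones of barrel assembly lay below 0 at 1 day with a median of -0.28, as did all 4 activators, also with a median of -0.28. PSMC3IP, the meiotic factor that the naming rule admits, stood at 4.01, 3.55, 2.70 and 3.93 CPM in LG04, and 3.40, 2.90, 4.57 and 3.34 CPM in LG11. The values were 4.85, 3.39, 4.32 and 5.21 CPM in LG12 and 2.77, 2.61, 2.49 and 2.37 CPM in LG15. It changed by -0.05 ± 0.26 at 1 day, and at 30 minutes it was the sole member lower in 4 of 4 animals, at -0.22 ± 0.24 (adjusted p = 1.0), beside 4.43% of all genes.

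The proportion of each gene to the alpha ring was followed over the libraries. For 38 members with a mean of at least 100 counts, the log2 of the count over the alpha ring sum varied with a median SD of 0.23 over the 16 libraries, and 24 of the 38 stayed under 0.25. The 7 alpha genes are among these 24 and are part of their own denominator, and 17 of the other 31 members stayed under 0.25. Over all 6169 genes with such a mean count the median SD was 0.43 and 10.6% stayed under 0.25. The lowest SD was 0.12, that of PSMA6, itself a part of that sum. The 6 highest were PSMD9 (1.09), PSMB6 (0.65), PSME4 (0.61), PSMD4 (0.52), PSMB10 (0.47) and PSMC2 (0.44), and the next was PSMD12 (0.39). PSMD4 is a ubiquitin receptor of the cap and PSMC2 an ATPase.

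PSMD9 stood at 46.0, 97.0, 124 and 28.8 CPM in LG04, and 24.6, 28.1, 18.8 and 26.7 CPM in LG11. LG12 had 13.4, 7.63, 9.94 and 10.4 CPM and LG15 19.7, 29.1, 23.9 and 51.3 CPM. All libraries of LG04 lay above all libraries of LG11 and LG12, and LG15 was highest at 1 day. Animal took 75.9% of its variance and time 0.91%. Globin took 20.3%, 38.2%, 48.7% and 13.6% of the counts of LG04 at the 4 times, and in LG04 the level of PSMD9 followed that order. In LG15, where globin took 6.10%, 3.36%, 10.6% and 20.8%, PSMD9 was also highest at 1 day. The 30 minute library of LG15, with the least globin of that animal, held 29.1 CPM, above its pre-treatment and 2 hour libraries. PSMD9 did not follow the order of the globin share in LG11, LG12 or LG15. The log2 fold change of PSMD9 at 30 minutes, 0.30 ± 0.41 (adjusted p = 1.0), was the largest of any member at that time, and it was -0.01 without LG04.

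PSMB6 stood at 42.0, 90.4, 121 and 26.2 CPM in LG04, and 37.4, 26.5, 32.5 and 38.5 CPM in LG11. Libraries of LG12 gave 22.7, 20.4, 25.1 and 34.2 CPM, and those of LG15 33.0, 38.6, 33.9 and 39.0 CPM. It was 4.60-fold apart between the 2 hour and 1 day libraries of LG04 and stayed within 20.4 to 39.0 CPM in the other 3 animals. PSME4 stood at 398, 632, 963 and 350.1 CPM in LG04, and 269, 269, 288 and 284 CPM in LG11. For LG12 the counts came to 299, 299, 243 and 218 CPM, and for LG15 to 313, 227, 229.8 and 296 CPM. All 4 libraries of LG04 exceeded all libraries of the other 3 animals. PSMD4 in LG04 stood at 50.7, 90.8, 126 and 42.6 CPM and PSMC2 at 52.0, 99.97, 124 and 47.2 CPM. In the other 3 animals PSMD4 ranged over 26.7 to 52.8 CPM and PSMC2 over 36.7 to 62.2 CPM. The log2 fold change of PSMB6 at 2 hours was 0.42 ± 0.35 (adjusted p = 0.83), and -0.02 without LG04. That of PSMD4 was 0.23 ± 0.26 at 30 minutes and 0.41 ± 0.26 at 2 hours (adjusted p = 1.0 and 0.76), and at 2 hours it was 0.06 without LG04. In CPM, 20 of the 38 members followed the order of the globin share in LG04, beside 14.9% of the 6169 genes, whereas 0, 5 and 0 did in LG11, LG12 and LG15, beside 4.67%, 6.95% and 3.84%. The CPM order in LG04 depends on the scaling. Its TMM factors were 0.94, 0.62, 0.46 and 0.83 at the 4 times. The share of all members in its raw counts was 0.218%, 0.187%, 0.169% and 0.167%, with no rise. Relative to the alpha ring, 7 of the 38 followed the order of the globin share in LG04, namely PSMD9, PSMB6, PSME4, PSMD4, PSMC2, PSME2 and PSMA6, beside 7.57% of the genes. On that scale 2, 3 and 3 members did in LG11, LG12 and LG15, beside 17.0%, 4.91% and 16.3%.

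Set against the alpha ring, 3 members were higher in all 5 libraries with more than 12% globin than in all 11 others. The log2 ratio of PSMD9 was -3.37 to -1.71 in the 5 libraries and -5.33 to -3.83 in the 11. That of PSME4 was 0.06 to 1.25 in the 5 and -0.94 to -0.08 in the 11, and that of PSMC2 was -2.67 to -1.70 in the 5 and -3.09 to -2.89 in the 11. The count of 3 of 45 compares with 3.28% of all genes. UBB, a ubiquitin gene outside the rule, showed the same separation, at 0.99 to 2.73 in the 5 and -1.34 to 0.14 in the 11. Because 4 of the 5 libraries came from LG04, red-cell content and this animal cannot be told apart for the most part, and the part of red cells in these values was not tested. PSMB6, PSMD4, PSMB10 and PSME1 overlapped between the 5 and the 11.

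**Figure D4:**
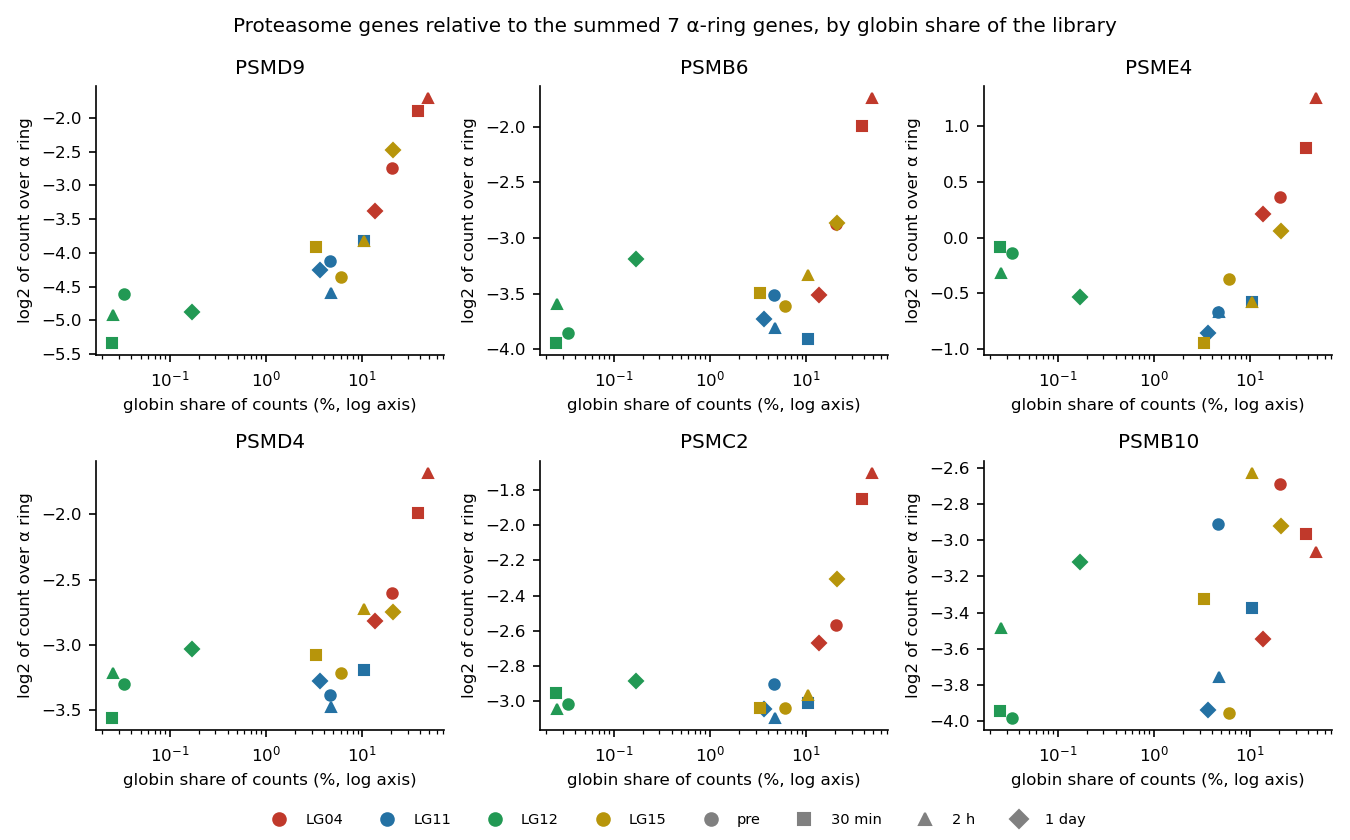
Log2 of the count of PSMD9, PSMB6, PSME4, PSMD4, PSMC2 and PSMB10 over the summed counts of the 7 alpha ring genes, against the globin share of the library in percent on a log axis, with colours for animals and symbols for times. The 30 minute and 2 hour libraries of LG04, with 38.2% and 48.7% globin, hold the highest values of the first 5 genes, and PSMB10 shows no such order.

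Genes that supply or regulate the proteasome were not called either. Of 10 partner genes, all tested, 4 lay above 0 and 6 below at 1 day, with a median of -0.02. SEM1, a small lid subunit listed as SHFM1, had a log2 fold change of 0.35 ± 0.16 at 1 day, higher in 4 of 4 animals (adjusted p = 0.36). UCHL5, a deubiquitinase of the cap, had 0.29 ± 0.19, also higher in 4 of 4 (adjusted p = 0.57). ADRM1, the ubiquitin receptor to which it binds, had -0.31 ± 0.45, and POMP, the chaperone that matures the barrel, had -0.15 ± 0.20 (adjusted p = 0.88 and 0.86).

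NFE2L1, the transcription factor NRF1 that raises proteasome genes together when proteasome activity is short, had -0.05 ± 0.15 at 1 day (adjusted p = 0.96). Of the 16 genes of the list on NRF1 and ubiquitin supply, 15 were tested and 0 were called, 8 above 0 and 7 below at 1 day with a median of 0.01. Among them NFE2L2, a transcription factor of the oxidative stress response, had 0.53 ± 0.15, higher in 4 of 4 (adjusted p = 0.13). It missed the threshold in edgeR.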

How the data were processed

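Per the labels' protocols, mononuclear cells from EDTA blood were separated on a density gradient and snap frozen, and stranded total RNA libraries depleted of ribosomal RNA were read with 75 single-read cycles. The deposited count tables give raw whole-number gene counts. Per the submitters' processing notes the tools were FastQC, Trimmomatic, STAR, HTSeq, DESeq and edgeR, with the human builds GRCh37 and hg19, and no versions or strand settings are stated; members with pseudogene copies or overlapping genes are therefore uncertain. The authors' deposited FPKM values are scaled to gene length and depth.

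Counts came from the tables per animal, since the series-wide 2 hour column of LG04 held the values of its 1 day library. Rows of the same symbol were summed. Depth was 1417467 to 8582852 counts per library; the floor of 3 counts covers counting error only, since these reads carry no molecular identifiers. edgeR 4.0.16 in R 4.3.3 (TMM, filterByExpr, quasi-likelihood F test) fitted time and animal over all 16 libraries, with 9 residual degrees of freedom, and p-values were adjusted by Benjamini and Hochberg over 11545 genes at a threshold of 0.05. Changes per animal are differences of log2 CPM with a prior count of 2. The replicate block is the animal, named in the labels at each time; deviations of an animal's libraries correlated (median 0.56, 23 of 24 pairs over 0.1). Alternatives were DESeq2 1.42.0 and its size factors, no filter, no block, libraries left out, globin genes removed, and limma 3.58.1 on log2(FPKM + 1) or log2(FPKM + 0.1). Scripts were tested on simulated data.

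Members and lists were chosen with earlier results of these data known. Values per library are given for the catalytic subunits and their induced forms, PSME1 and PSME2, the 8 members with the smallest p over the 4 times, and the highest member by FPKM in each role; fold changes are also given for the 3 largest changes at each time. PSMA3, PSMB2, PSME4 and PSMC2 were named after their values were seen. Some results are not reported here.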

Additional observations from a re-analysis of the deposited data

Results flagged for a closer look

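Within a time, the highest or lowest of the 4 animals was compared with the nearest of the others by Dixon's test for 23 members, which gave 92 groups. Of these 7 stood out, and chance alone flags about 1 in 20 where genes are chosen without regard to their values. That rate does not hold here, since part of the 23 were named for their values in these same libraries. PSMB6, PSMD9 and PSME4 are among the 6 members that varied most against the alpha ring, so their flags are no separate result. In the 2 hour group the LG04 library was far above the others for PSMB6 (120.5 CPM, against 25.1 to 33.9 CPM), PSMD9 (123.5 CPM, against 9.94 to 23.9 CPM) and PSME4 (962.6 CPM, against 229.8 to 288.1 CPM). That library also held the largest globin share, 48.7% of its counts. At 30 minutes PSMG4 was low in LG12 (2.54 CPM, against 5.42 to 5.79 CPM), and PSMD7 was high in LG15 (33.4 CPM, against 30.5 to 30.7 CPM). PSMD2 was low before treatment in LG04 (109.7 CPM, against 130.9 to 133.6 CPM). At 1 day PSMG1 was high in LG11 (25.2 CPM, against 15.0 to 15.7 CPM). The gap of PSMD7 is small in size because the other animals nearly coincide.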

How the results depend on the processing

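The count of members called was 0 in all 98 combinations of 14 alternatives and 7 tests, where 0 calls in the small fits without libraries say little. The smallest adjusted p of any member was 0.078 (PSME1 at 1 day, DESeq2). For PSME1 at 1 day the log2 fold change ran from -0.69 to -0.37 and the adjusted p from 0.078 to 0.83 over the alternatives. Without the replicate block the members called stayed 0 and the 1 day median was -0.10, beside -0.12 with it. Leaving out an animal gave medians at 30 minutes of -0.05 to 0.07, at 2 hours of -0.11 to 0.11 and at 1 day of -0.18 to -0.01. Other scalings moved these medians. The 2 hour median of the members was 0.04, but -0.19 with limma on log2(FPKM + 0.1) and -0.25 with library size alone, an alternative chosen after seeing the data. The 1 day median was -0.12, but -0.28 with limma on log2(FPKM + 1), -0.32 on log2(FPKM + 0.1) and -0.32 with library size alone. Library size alone moved the median of all genes to -0.26 at 2 hours and -0.21 at 1 day, so the members then differed from all genes by 0.01 and -0.11. With limma the median of all genes was -0.20 at 2 hours on log2(FPKM + 0.1), and at 1 day -0.18 on log2(FPKM + 1) and -0.22 on log2(FPKM + 0.1), so the members differed from all genes by 0.01, -0.10 and -0.10. Of 1932 values of single genes, 0 reversed a called direction, and 235 changed sign while uncalled. The genes called at 1 day over all genes numbered 26, but 3 without the replicate block, 387 with DESeq2 and 0 without the 4 shallowest libraries; the cause was not tested. Depth limits PSMG4 and PSMC3IP most, at under 6 CPM.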

Other observations

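PSMB10 shared its division of the animals at 1 day with other genes, a pattern looked for after its values were seen. The log2 change at 1 day was -0.89 in LG04, -0.76 in LG11, 0.78 in LG12 and 0.52 in LG15. ADRM1, the ubiquitin receptor of the cap, changed by -1.91, -1.04, 0.48 and 1.13 in the same animals. Over all 11545 genes, 439 (3.80%) were lower by at least 0.5 in LG04 and LG11 and higher by at least 0.5 in LG12 and LG15, while 8 showed the reverse. PSMB10 was the sole member among the 439, and 0 members were among the 8. ADRM1, at 0.48 in LG12, missed the bound of 0.5 and is not among the 439. At 30 minutes 2 genes had the first division and 25 the reverse, and at 2 hours 113 and 10. The labels give nothing that pairs LG04 with LG11 or LG12 with LG15. At 1 day the red-cell and NK-cell marker sums had the same division, lower in the former pair and higher in the latter. Red-cell sums before treatment and at 1 day were 189034 and 140479 CPM (LG04) and 34456 and 28260 CPM (LG11). They were 223 and 1228 CPM (LG12) and 47036 and 226121 CPM (LG15). NK-cell sums were 464 and 377, 461 and 211, 261 and 303, and 401 and 485 CPM in that order of animals. Whether either cell type bears on the PSMB10 values was not tested. Other ways of pairing the animals were not counted, so whether this pairing is unusual was not tested. What the 439 genes share was not tested.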
